A study of Bos grunniens x Bos taurus and Bos grunniens with 6 samples.

Results

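The genes described here store, tail and translate mRNA in germ cells: the Y-box proteins YBX1, YBX2 and YBX3, the poly(A)-binding protein PABPC1, the poly(A) polymerases PAPOLA and PAPOLB, CPEB1 and CPEB2, and the Musashi proteins MSI1 and MSI2. They were chosen by gene symbol, ignoring case, and every gene entry with 1 of these symbols was kept apart. Of the 10 symbols, 9 were matched by 14 of the 18918 gene entries, and PAPOLB was not analysed here. Testis RNA of 3 cattle-yak (C1, C2 and C3) was sequenced beside that of 3 yak (Y1, Y2 and Y3) to see how the testis of the hybrid differed from that of its maternal species, from 1 library for each animal. The cattle-yak were male F1 hybrids of a Jersey cattle sire and a Gannan yak dam, the yak were male Gannan yak, and all 6 animals were 4 years old. The animals of each group were kept in a different county. The labels give castration as the source of the testes, whereas the methods of the study give castration for cattle-yak and euthanasia for yak, so place and possibly collection cannot be told apart from genotype. Reads of both groups were mapped to the yak genome, so an effect of the cattle alleles of the hybrid on mapping cannot be told apart from a difference in expression.

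Transcription stops as the spermatid nucleus is compacted, and the mRNAs of late spermatids are therefore made early and kept untranslated in ribonucleoprotein particles until they are needed. Y-box proteins package such mRNAs, with YBX2 the form known from germ cells, while the length of the poly(A) tail and the proteins bound to it regulate when translation starts. CPEB proteins bind the cytoplasmic polyadenylation elements of mRNAs, outside the poly(A) tail, and recruit polymerases and deadenylases. Musashi proteins bind mRNAs to regulate their translation in stem and germ cells.

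The values were FPKM (fragments per kilobase of gene model scaled to the depth of the library), which can be compared between genes because they are per length. The depths used were 11834987 (C1), 11175100 (C2) and 11600013 (C3) fragments in cattle-yak and 13136129 (Y1), 13104964 (Y2) and 12991641 (Y3) in yak. These depths were close to the fragments on genes (11747136 in C1 and 13016878 in Y1). A 1 kb gene with 1 fragment thus had 0.0761 to 0.0895 FPKM. The groups were compared with limma on log2 (FPKM + 1) over the 15042 genes whose mean reached 0.5 FPKM, and a gene was called at an adjusted p under 0.05 and a log2 (foldchange) beyond 1 in either direction. For genes with low values the added 1 makes the fold change smaller than the ratio of the FPKM. Of the 14 entries, 13 reached the minimum and were tested. Among them 8 were called lower in cattle-yak, beside 20.8% of all genes tested, and 1 was called higher, beside 33.4%. The values of the groups did not overlap in 13 of 13, beside 84.1% of all genes tested. The second YBX3 entry, among the 8, reached the minimum through the yak alone and so had to differ, and these counts are a description. The median log2 (foldchange) was −1.71 for the tested entries and 0.51 for all genes tested.

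These counts depended on the scaling of the libraries. As deposited, 5023 genes were called higher and 3136 lower, whereas median-of-ratios scaling gave 2655 higher and 4173 lower and moved the median of all genes to 0.01. With each library centred on Sertoli cell markers, 36 genes were called higher and 10853 lower around a median of −1.67. Among the storage genes, median-of-ratios scaling gave 1 call higher and 8 lower, and the Sertoli-centred values gave 0 higher and 12 lower. As deposited, the log2 (foldchange) relative to the median of all genes was −4.83 for YBX2, −2.10 for the low PABPC1 entry and 1.08 for MSI2. Such a difference from the median removes by construction any shift common to all genes, so its likeness between scalings is no check.

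**Figure D1:**
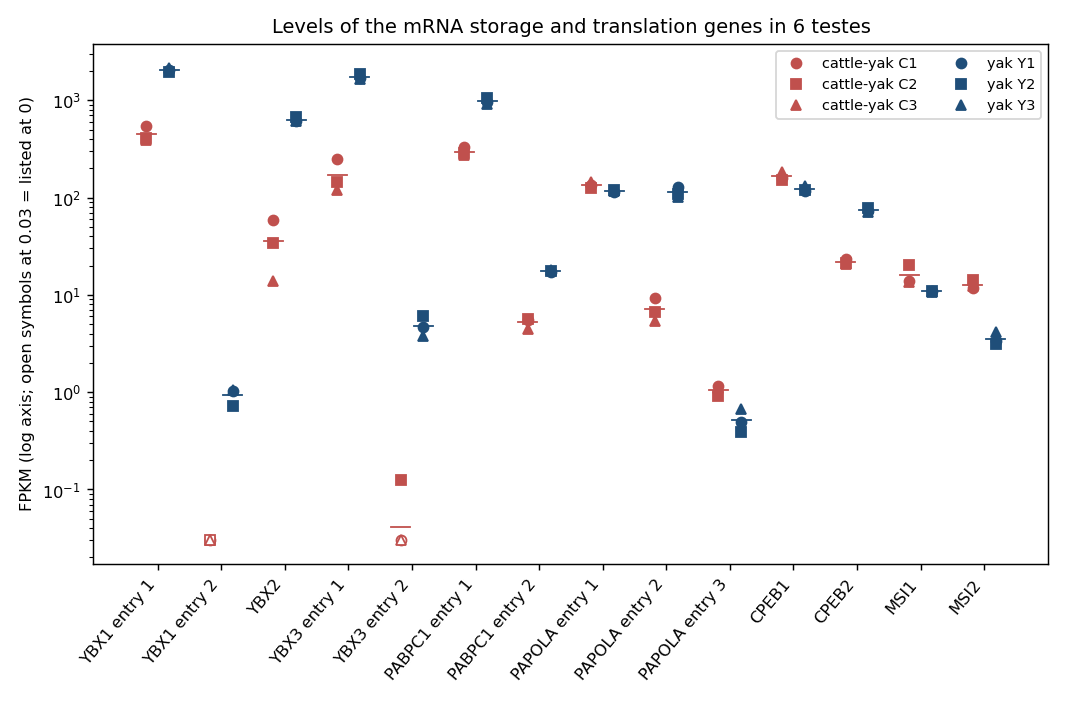
FPKM (log axis) of the 14 gene entries in each of the 6 animals, with cattle-yak in red, yak in blue and a short bar at each group mean (n = 3). Open symbols mark values listed at 0. YBX2 was at 13.96 to 59.09 FPKM in cattle-yak and at 612.7 to 672.0 FPKM in yak, while CPEB1 was at 152.7 to 184.3 and 117.4 to 131.5 FPKM.

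YBX2 (ENSBGRG00000021388), the germ cell Y-box protein, was at 59.1, 34.5 and 14.0 FPKM in C1, C2 and C3 and at 616.8, 672.0 and 612.7 FPKM in Y1, Y2 and Y3. Every cattle-yak lay far below every yak, and the cattle-yak differed among themselves, with C1 highest and C3 lowest, while the yak were close together. The means were 35.9 ± 22.6 FPKM for cattle-yak and 633.8 ± 33.1 FPKM for yak (SD, n = 3), which is 17.7-fold lower in cattle-yak. In limma the log2 (foldchange) was −4.32 (SE 0.42, adjusted p = 2.4e-05). It rested on 1391, 767 and 322 fragments in C1, C2 and C3, so counting error was small beside the spread of the animals. In bulk tissue, fewer cells of a type and less RNA per cell cannot be told apart, which holds for each difference given here.

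YBX3 (ENSBGRG00000021806), a cold shock domain protein related to YBX2, was at 248.9, 145.1 and 119.6 FPKM in C1, C2 and C3 and at 1706, 1879 and 1660 FPKM in Y1, Y2 and Y3. The groups did not overlap, and C1 was again the highest cattle-yak. The mean fell from 1748 ± 116 FPKM in yak to 171.2 ± 68.5 FPKM in cattle-yak (SD, n = 3), 10.2-fold lower, with a log2 (foldchange) of −3.41 (SE 0.24, adjusted p = 4.0e-06, limma).

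YBX1 (ENSBGRG00000012514), the Y-box protein made in most tissues, was at 549.8, 405.3 and 386.6 FPKM in C1, C2 and C3 and at 2041, 1952 and 2165 FPKM in Y1, Y2 and Y3. All cattle-yak lay far below all yak. Means of 447.2 ± 89.3 FPKM for cattle-yak and 2053 ± 107 FPKM for yak (SD, n = 3) put it 4.59-fold lower in cattle-yak, and limma gave a log2 (foldchange) of −2.21 (SE 0.14, adjusted p = 2.7e-06). YBX1, YBX2 and YBX3 together took 0.11 ± 0.03% of all FPKM of a cattle-yak library and 0.739 ± 0.015% of a yak library (SD, n = 3).

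A second entry carried the symbol of YBX1 and a second one that of YBX3, each with few fragments. The second YBX1 entry (ENSBGRG00000008557) was at 0 in C1, C2 and C3 and at 1.03, 0.718 and 1.05 FPKM in Y1, Y2 and Y3, and lay under the minimum for the test. With 0 fragments in cattle-yak against 35 in yak, it was 10.3-fold lower in cattle-yak at a floor of 3 fragments over the group (0.0906 FPKM). At 3.69 fragments, the upper limit of the 95% counting interval, it was at least 8.37-fold lower. The second YBX3 entry (ENSBGRG00000010170) was at 0, 0.124 and 0 FPKM in C1, C2 and C3 and at 4.63, 6.12 and 3.78 FPKM in Y1, Y2 and Y3. Both low entries were thus found in every yak and almost nowhere in cattle-yak. For the second YBX3 entry, 2 fragments in cattle-yak stood against 275 in yak, a ratio of 121 (95% counting interval 33.6 to 1001), and limma gave a log2 (foldchange) of −2.47 (SE 0.19, adjusted p = 5.6e-06). Its fitted value depended on how low values were treated (−5.21 with a pseudocount of 0.1, −6.55 with voom). Intervals and floors cover counting error only. Entries that share a symbol may be near-identical copies between which the fragments were split, so their separate levels are uncertain.

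PABPC1, which binds poly(A) tails and promotes translation, stood on a high and a low entry. The high entry (ENSBGRG00000009759) was at 328.1, 286.4 and 276.9 FPKM in C1, C2 and C3 and at 964.4, 1052 and 911.0 FPKM in Y1, Y2 and Y3. The cattle-yak were close to each other and lay below every yak. Its means of 297.1 ± 27.3 and 975.7 ± 71.0 FPKM (SD, n = 3) differed 3.28-fold, with a log2 (foldchange) of −1.71 (SE 0.11, adjusted p = 2.0e-06, limma). The low entry (ENSBGRG00000025631) was at 4.503 to 5.68 FPKM in cattle-yak and at 17.0 to 18.1 FPKM in yak, and its log2 (foldchange) of −1.59 (SE 0.13, adjusted p = 8.0e-06, limma) lay within the 95% interval of the high entry.

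The symbol of PAPOLA, the canonical nuclear poly(A) polymerase, stood on 3 entries that differed in direction and in level. The first (ENSBGRG00000018205, gene model of 2540 bases) was at 136.1, 125.1 and 142.9 FPKM in C1, C2 and C3 and at 114.7, 118.5 and 116.7 FPKM in Y1, Y2 and Y3. Cattle-yak lay slightly above yak without overlap, but limma did not call it, with a log2 (foldchange) of 0.20 (SE 0.09, 95% interval 0.00 to 0.41, adjusted p = 0.06) that became −0.41 with median-of-ratios scaling and −1.97 with Sertoli-centred values. The second (ENSBGRG00000020674, gene model of 501 bases) was at 9.28, 6.61 and 5.33 FPKM in C1, C2 and C3 and at 129.3, 109.7 and 100.2 FPKM in Y1, Y2 and Y3. In yak it was as high as the first entry, and in every cattle-yak it was far lower. The means were 7.07 ± 2.01 and 113.0 ± 14.9 FPKM (SD, n = 3), 16.0-fold lower in cattle-yak, with a log2 (foldchange) of −3.84 (SE 0.19, adjusted p = 6.3e-07, limma), on 55, 37 and 31 fragments in C1, C2 and C3.

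Within an animal, the FPKM of the second PAPOLA entry divided by that of the first was 0.0681, 0.0528 and 0.0373 in C1, C2 and C3 and 1.13, 0.926 and 0.858 in Y1, Y2 and Y3. This ratio was chosen after the values were seen and was not tested. The third entry (ENSBGRG00000012297) was at 0.909 to 1.17 FPKM in cattle-yak and at 0.388 to 0.675 FPKM in yak, on 11 to 30 fragments per animal. Its log2 (foldchange) of 0.45 (SE 0.16, adjusted p = 0.027, limma) did not pass the fold threshold. The value became 0.18 with median-of-ratios scaling and −1.73 with Sertoli-centred values, while voom on recovered fragments gave 1.05 and called it higher. In limma the adjusted p was 0.079 without C1, 0.074 without C3, 0.060 without Y1 and 0.075 without Y2. Without C2 or Y3 it was 0.026 and 0.022 in limma. Which transcripts the shorter entries stand for cannot be told apart from the values alone.

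**Figure D2:**
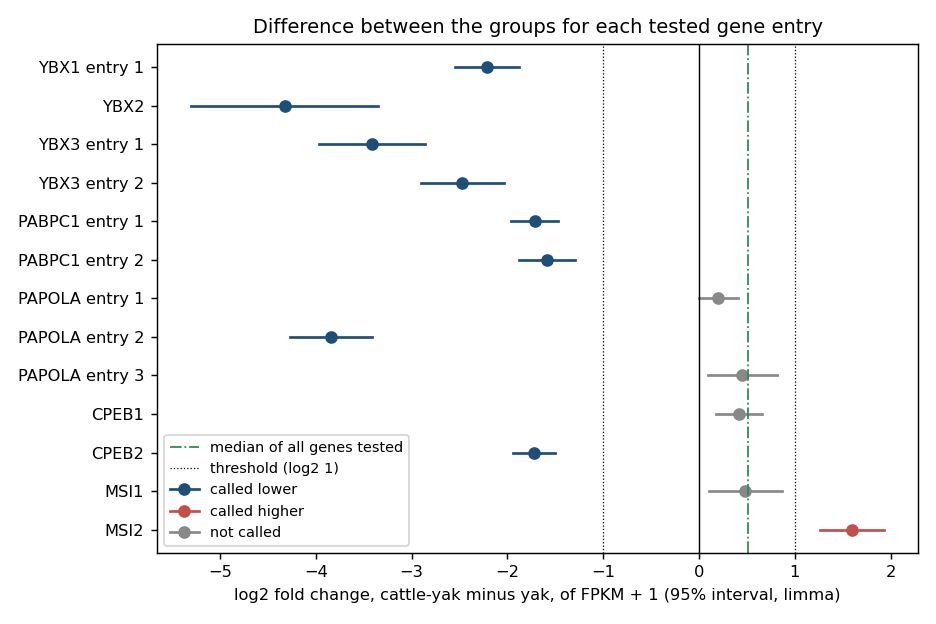
The log2 (foldchange) of cattle-yak minus yak on FPKM + 1 for the 13 tested entries, with 95% intervals from limma, dotted lines at the thresholds of −1 and 1 and a green line at the median of all genes tested (0.51). The 8 entries called lower run from −4.32 (YBX2) to −1.59 (second PABPC1 entry), and MSI2 at 1.60 is the entry called higher, although it was at −0.58 with Sertoli-centred values.

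CPEB1 and CPEB2, which bind polyadenylation elements, differed from each other. CPEB2 (ENSBGRG00000023568) was at 23.3, 21.3 and 21.0 FPKM in C1, C2 and C3 and at 73.5, 77.5 and 71.6 FPKM in Y1, Y2 and Y3. All cattle-yak lay near the same level, below every yak. The means of 21.9 ± 1.28 and 74.2 ± 3.01 FPKM (SD, n = 3) gave a 3.39-fold lower level and a log2 (foldchange) of −1.72 (SE 0.09, adjusted p = 1.1e-06, limma). CPEB1 (ENSBGRG00000012385) was at 159.0, 152.7 and 184.3 FPKM in C1, C2 and C3 and at 117.4, 119.5 and 131.5 FPKM in Y1, Y2 and Y3. Here the cattle-yak lay above the yak by less than the fold threshold. The log2 (foldchange) of CPEB1 was 0.42 (SE 0.10, adjusted p = 5.1e-03, limma), and it became −0.19 with median-of-ratios scaling and −1.76 with Sertoli-centred values.

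MSI2 (ENSBGRG00000016052), an RNA-binding protein of stem and progenitor cells, was at 11.9, 14.1 and 12.2 FPKM in C1, C2 and C3 and at 3.37, 3.11 and 4.17 FPKM in Y1, Y2 and Y3. Every cattle-yak exceeded every yak. The mean was 12.7 ± 1.17 FPKM for cattle-yak and 3.55 ± 0.551 FPKM for yak (SD, n = 3), 3.58-fold higher, with a log2 (foldchange) of 1.60 (SE 0.15, adjusted p = 1.7e-05, limma) that was 1.06 with median-of-ratios scaling and −0.58 with Sertoli-centred values. MSI1 (ENSBGRG00000026314), its paralog, was at 13.7, 20.5 and 13.5 FPKM in C1, C2 and C3 and at 10.9, 11.0 and 10.8 FPKM in Y1, Y2 and Y3. C2 stood above the other cattle-yak, which were close to the yak. The log2 (foldchange) of MSI1 was 0.48 (SE 0.17, adjusted p = 0.027, limma) and did not pass the fold threshold, and it became −0.09 with median-of-ratios scaling and −1.70 with Sertoli-centred values. Without C2 it was 0.30 (adjusted p = 0.053, limma), and without Y1, Y2 or Y3 the adjusted p was 0.064, 0.059 and 0.066 in limma.

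The order of the levels differed between the groups. In yak the order by mean FPKM was YBX1, YBX3, PABPC1 and YBX2, each apart from the next, and then CPEB1 and the first and second PAPOLA entries, whose ranges all overlapped. CPEB2, the low PABPC1 entry and MSI1 followed, each apart, and then the second YBX3 entry and MSI2, which overlapped, and the second YBX1 and the third PAPOLA entry. In cattle-yak YBX1 came first and PABPC1 second, followed by YBX3, whose range overlapped with those of CPEB1 and the first PAPOLA entry. YBX2 overlapped with CPEB2, MSI1 and MSI2 there, MSI1 with MSI2, and the second PAPOLA entry with the low PABPC1 entry. YBX2 thus stood above CPEB1 in each yak and below it in each cattle-yak.

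Because a ratio of 2 FPKM within a library does not move with the scaling of that library, related genes were compared in this way. The ratios were taken as log2 ratios of FPKM + 1, in which the added 1 leaves a small dependence on scale at low levels. YBX2 to YBX1 was −3.20, −3.52 and −4.70 in C1, C2 and C3 and −1.72, −1.54 and −1.82 in Y1, Y2 and Y3, so YBX2 was lower relative to YBX1 in every cattle-yak. The difference of the means was −2.11 for YBX2 to YBX1 and −1.20 for YBX3 to YBX1. CPEB2 to CPEB1 was −2.72, −2.79 and −3.08 in C1, C2 and C3 and −0.67, −0.62 and −0.87 in Y1, Y2 and Y3, a difference of −2.14. The ratio of MSI1 to MSI2 was 0.19, 0.51 and 0.13 in C1, C2 and C3 and 1.44, 1.55 and 1.19 in Y1, Y2 and Y3, a difference of −1.11 (−1.33 with no pseudocount), so that MSI1 exceeded MSI2 in all 6 animals but by less in cattle-yak. YBX2 to YBX3 differed by −0.91, which became −0.59 without C3. The 5 ratios did not overlap between the groups, and each gave p = 0.1 in a two-sided exact permutation test (adjusted over the 5 ratios, 0.1), which is the smallest p that 3 against 3 animals allow.

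**Figure D3:**
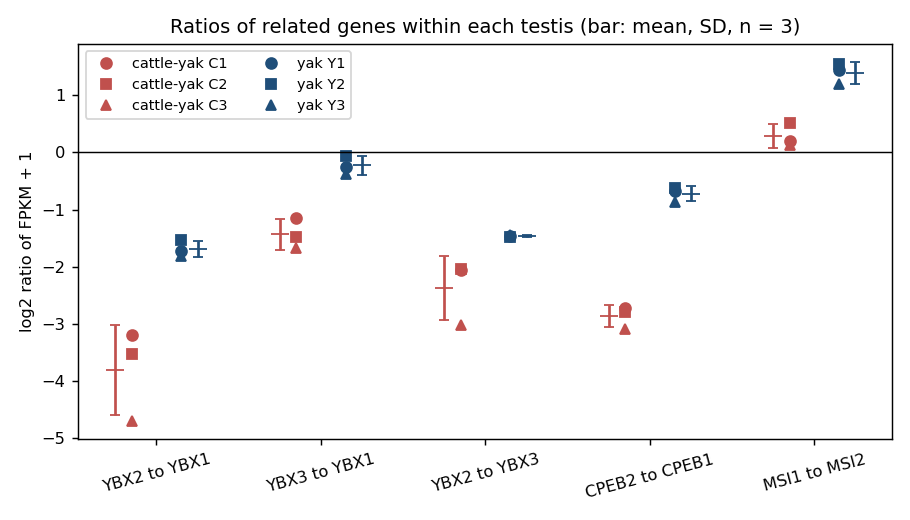
The log2 ratio of FPKM + 1 for 5 pairs of related genes in each animal, cattle-yak in red and yak in blue, with the mean and SD of each group beside the points (n = 3). In each pair the cattle-yak lie below the yak, with differences of the means from −0.91 (YBX2 to YBX3) to −2.14 (CPEB2 to CPEB1).

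Many markers of germ cell stages and of somatic cells also differed between the groups, in both directions. Their part in the differences of the storage genes was not tested. The calls in these lists stand beside 33.4% higher and 20.8% lower among all genes tested as deposited. The most abundant gene of a list is the one with the highest mean over the 6 animals, which need not lead in each group. The round spermatid list (4 of 8 genes found, most abundant ACR) summed to 25.1, 11.7 and 4.54 FPKM in C1, C2 and C3 and to 533.2, 510.4 and 563.7 FPKM in Y1, Y2 and Y3, with 4 of 4 called lower, although SPACA3 and SUN5 reached the minimum through the yak alone. The elongating spermatid list (6 of 8 genes found, most abundant TNP1, a transition protein whose mRNA is stored) summed to 72.6, 27.0 and 14.4 FPKM against 9891, 8489 and 10330 FPKM, with 6 of 6 called lower. In both lists C1 was the highest and C3 the lowest cattle-yak, the same order as for YBX2, the first YBX1 and YBX3 entries, the high PABPC1 entry, CPEB2 and the second PAPOLA entry. This order is not particular to the spermatid lists. The Leydig cell list, most of it INSL3, had it too (12470, 11910 and 10470 FPKM), as did PIWIL1 and VWF. For CPEB2 the step from C2 to C3 was small (21.3 and 20.95 FPKM). In the low PABPC1 entry and the second YBX3 entry C2 was the highest.

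As percent of the yak mean, C1, C2 and C3 had 9.32, 5.44 and 2.20 for YBX2 and 14.2, 8.30 and 6.84 for YBX3. The values were 8.21, 5.85 and 4.72 for the second PAPOLA entry, whereas the round spermatid list was at 4.68, 2.18 and 0.847 and the elongating spermatid list at 0.758, 0.282 and 0.15. In each cattle-yak these 3 genes were thus at a larger share of the yak level than the spermatid lists. PABPC1 (33.6, 29.4 and 28.4) and CPEB2 (31.4, 28.7 and 28.2) varied little between the cattle-yak beside the spermatid lists. No listed marker was at 0 in every cattle-yak.

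The spermatocyte list (9 genes) summed to 369.0, 215.1 and 348.0 FPKM in C1, C2 and C3 and to 419.0, 407.6 and 441.7 FPKM in Y1, Y2 and Y3, with 1 gene called higher and 1 lower. Its most abundant gene, PIWIL1, was at 25.5, 14.6 and 6.99 FPKM against 163.1, 147.3 and 134.8 FPKM. Without PIWIL1, a sum chosen after the values were seen, the spermatocyte list was at 343.6, 200.5 and 341.0 FPKM in C1, C2 and C3 and at 255.9, 260.3 and 306.9 FPKM in Y1, Y2 and Y3, so the groups overlapped and the lower sum in C1 and C3 rested on PIWIL1. The spermatogonia list (8 of 9 genes found, most abundant DMRT1) summed to 735.6, 833.2 and 939.3 FPKM against 177.9, 194.4 and 245.6 FPKM, with 7 of 8 called higher as deposited. More of this sum came from DMRT1 than from the other genes. Without DMRT1, a sum also chosen after the values were seen, the list was at 313.7, 370.8 and 378.4 FPKM against 77.7, 74.7 and 91.8 FPKM. MSI2 differed in the direction of the spermatogonia list as deposited.

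Of the somatic lists, those of Sertoli, Leydig and myoid cells were higher in every cattle-yak than in every yak as deposited, and those of endothelium and macrophages were not when the whole list was summed. As deposited, 33.4% of all genes tested were called higher, whereas 36 genes were with Sertoli-centred values. The Sertoli cell list (most abundant CLU) summed to 3100, 3246 and 3314 FPKM in C1, C2 and C3 and to 734.5, 670.1 and 709.2 FPKM in Y1, Y2 and Y3, with 12 of 13 tested entries called higher. The Leydig cell list (most abundant INSL3) summed to 12470, 11910 and 10470 FPKM against 4889, 3352 and 3541 FPKM, with 8 of 8 called higher. Most of this sum was INSL3. Without INSL3, in a sum chosen after the values were seen, the list was at 404.4, 484.2 and 440.7 FPKM against 119.9, 69.5 and 65.8 FPKM. The peritubular myoid list (most abundant ACTA2) summed to 584.3, 781.8 and 594.9 FPKM against 146.8, 118.6 and 123.6 FPKM, with 6 of 6 called higher. MSI2 was at 335, 396 and 344% of the yak mean in C1, C2 and C3. Beside it, the Leydig list was at 318, 303 and 267%, which rests mostly on INSL3. The spermatogonia list was at 357, 404 and 456%, the Sertoli list at 440, 461 and 470% and the myoid list at 451, 603 and 459%. The endothelial list (most abundant VWF) summed to 43.2, 48.2 and 30.2 FPKM against 32.5, 27.9 and 31.7 FPKM, with 3 of 6 called higher and 1 lower. The macrophage list (most abundant AIF1) summed to 71.9, 94.7 and 90.7 FPKM against 114.8, 116.4 and 97.6 FPKM, with 3 of 6 called higher and 2 lower. AIF1 was at 3.65, 4.24 and 2.75 FPKM in C1, C2 and C3 and at 69.6, 57.7 and 56.5 FPKM in Y1, Y2 and Y3, so it led the list in yak but not in cattle-yak. In sums chosen after the values were seen, the macrophage list without AIF1 was at 68.2, 90.5 and 88.0 FPKM against 45.2, 58.7 and 41.1 FPKM, and the endothelial list without VWF at 38.6, 44.3 and 27.7 FPKM against 16.4, 12.3 and 16.6 FPKM. Both were then higher in every cattle-yak than in every yak.

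**Figure D4:**
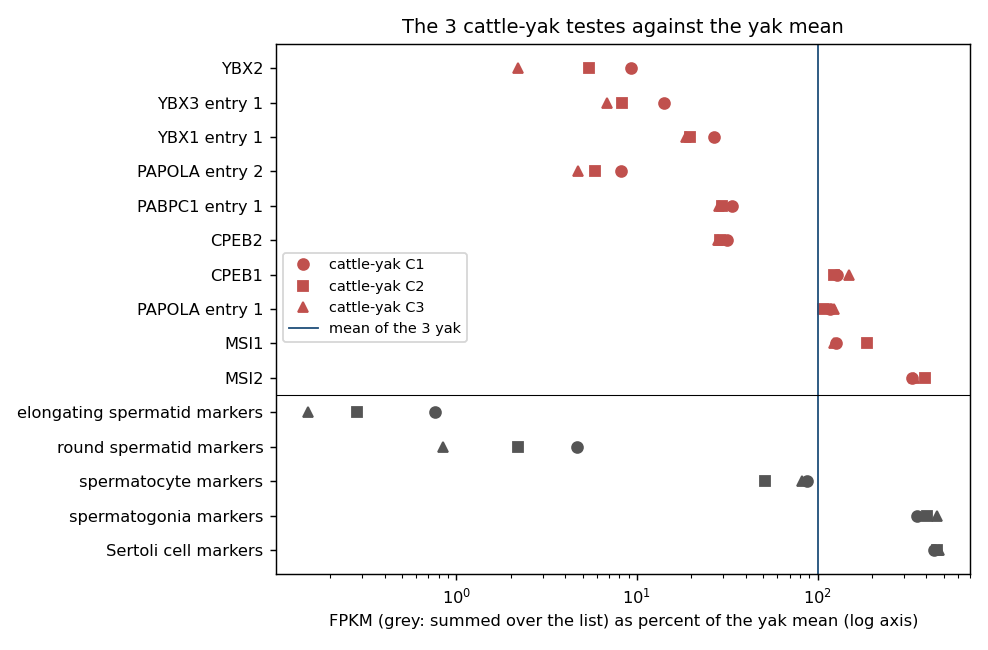
FPKM of storage and translation genes (red) and summed FPKM of marker lists (grey) in C1, C2 and C3 as percent of the mean of the 3 yak, which is the blue line at 100 (log axis, as deposited). Animal by animal, YBX2 and the second PAPOLA entry lie between the spermatid lists and PABPC1 or CPEB2, and MSI2 lies above the yak mean as deposited (its log2 (foldchange) was −0.58 with Sertoli-centred values).

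Other genes of the same machinery were read from 5 lists of related genes, whose shares of calls stand beside 33.4% higher and 20.8% lower among all genes tested and whose medians stand beside 0.51. For mRNP storage and cold shock proteins, 6 of 20 tested entries (30.0%) were called higher and 2 (10%) lower, with a median log2 (foldchange) of 0.14 that ran from 0.02 without C2 to 0.23 without Y1. The log2 (foldchange) ran from −1.74 for DCP1B, a decapping cofactor, to 2.39 for CSDC2, a cold shock domain protein that was at 0.21 and not called with Sertoli-centred values. LIN28A, at a mean of 0.472 FPKM in cattle-yak and 0.0412 FPKM in yak, lay under the minimum, and LIN28B was at 2.11 ± 0.710 and 1.85 ± 0.395 FPKM (SD, n = 3).

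Of the poly(A)-binding proteins and their partners, 8 of 21 tested entries (38.1%) were called higher and 2 (9.52%) lower (median 0.59). PABPC4, the paralog of PABPC1, was at 306.1, 425.4 and 417.0 FPKM in C1, C2 and C3 and at 86.3, 89.3 and 112.3 FPKM in Y1, Y2 and Y3. As deposited it thus differed in the opposite direction to PABPC1, and it exceeded PABPC1 in C2 and C3 but in no yak. The log2 (foldchange) of PABPC4 was 1.98 (SE 0.16, adjusted p = 7.7e-06, limma), and 1.36 with median-of-ratios scaling, but −0.20 with Sertoli-centred values. PAIP2, an inhibitor of PABPC1, was at 498.2 ± 3.28 and 672.7 ± 47.8 FPKM (SD, n = 3) and was not called as deposited (−0.43), although it was called lower with median-of-ratios scaling (−1.05) and with Sertoli-centred values (−2.61). Its paralog PAIP2B was called lower (log2 (foldchange) −1.75). PABPC5 was called higher at 1.53 (−0.65 with Sertoli-centred values), on means of 3.92 and 0.709 FPKM, and PABPC1L was not called, on means of 1.07 and 0.420 FPKM, although a pseudocount of 0.1 (1.07) and voom (1.20) called it higher. It reached the minimum through the cattle-yak alone, as did PABPC4L, which is among the 8 called higher.

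The nuclear poly(A)-binding protein PABPN1 stood on 3 entries. The first was at 141.9 ± 9.03 and 181.5 ± 13.4 FPKM (SD, n = 3) and was not called as deposited (−0.35), although it was called lower with Sertoli-centred values (−2.53). The second was called higher with a log2 (foldchange) of 1.13 (SE 0.41, adjusted p = 0.032, limma), but Y3 at 14.9 FPKM lay among the cattle-yak at 14.5 to 16.1 FPKM, away from Y1 and Y2 at 4.02 and 3.96 FPKM. This value was 0.86 without Y1, 0.85 without Y2 and 0.58 with median-of-ratios scaling, each short of a call, and Sertoli-centred values called it lower (−1.05). Without C1, C2 or C3 the adjusted p from limma was 0.051, 0.073 and 0.066, also short of a call, as was the 0.050 with no minimum, whereas without Y3 it was called higher at 1.69 (adjusted p = 5.3e-05). The third PABPN1 entry and PABPN1L lay under the minimum.

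Among poly(A) polymerases and 3-prime end processing factors, 6 of 22 tested entries (27.3%) were called higher and 5 (22.7%) lower (median 0.19). NUDT21, a cleavage factor subunit and the most abundant over the 6 animals though not in yak, was called higher at 1.04 as deposited, with 0.43 under median-of-ratios scaling, −1.14 with Sertoli-centred values and 0.98 without Y1, and it was no longer called without C3 either. TENT5C, a cytoplasmic poly(A) polymerase, was at 21.6, 20.8 and 18.1 FPKM in C1, C2 and C3 and at 174.9, 164.1 and 176.9 FPKM in Y1, Y2 and Y3. It was 8.53-fold lower in cattle-yak, with a log2 (foldchange) of −3.03 (SE 0.10, adjusted p = 1.4e-07, limma). Its paralogs differed as deposited, with TENT5A called higher at 1.98 (−0.20 with Sertoli-centred values), TENT5B called lower at −1.17 and TENT5D not called (−0.02). PAPOLG, the nuclear paralog of PAPOLA, was at 14.5 ± 2.71 and 6.62 ± 0.495 FPKM (SD, n = 3), with a log2 (foldchange) of 1.01 (SE 0.16, adjusted p = 4.2e-04, limma) at the edge of the threshold. It fell short of it without C1 (0.92), C3 (0.95) or Y2 (0.97) and with median-of-ratios scaling (0.45), and was −1.17 with Sertoli-centred values. TENT2, the polymerase that acts with CPEB1, was at 72.8 ± 2.01 and 44.6 ± 2.37 FPKM (SD, n = 3) and was not called (0.70, and −1.48 with Sertoli-centred values).

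Of the deadenylation genes, 7 of 21 (33.3%) were called higher and 2 (9.52%) lower (median 0.53), so the share called higher and the median were near those of all genes. Their extremes were paralogs of the BTG family, whose proteins recruit the deadenylase complex. BTG4 was at 3.30, 2.13 and 2.29 FPKM in C1, C2 and C3 and at 26.1, 31.2 and 29.9 FPKM in Y1, Y2 and Y3. BTG3, the most abundant over the 6 animals though not in yak, was at 317.7, 313.2 and 377.0 FPKM in C1, C2 and C3 and at 61.8, 57.5 and 70.8 FPKM in Y1, Y2 and Y3. As deposited, BTG4 was thus lower in every cattle-yak than in every yak and BTG3 higher. In limma the log2 (foldchange) was −3.08 for BTG4 (SE 0.16, adjusted p = 8.8e-07) and 2.39 for BTG3 (SE 0.12, adjusted p = 6.5e-07), which was at 0.21 and not called with Sertoli-centred values.

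For the other UTR-binding translation regulators, 6 of 20 tested genes (30.0%) were called higher and 4 (20%) lower (median 0.55). SAMD4A, a sequence-specific translational repressor, was at 4.76, 3.72 and 3.15 FPKM in C1, C2 and C3 and at 288.4, 261.1 and 302.9 FPKM in Y1, Y2 and Y3, 73.3-fold lower in cattle-yak. Its log2 (foldchange) of −5.88 (SE 0.14, adjusted p = 5.7e-08, limma) was the lowest among the genes of the 5 lists and lay below that of YBX2. CPEB3, a paralog of CPEB2, was at 2.37, 1.999 and 2.58 FPKM in C1, C2 and C3 and at 34.0, 34.5 and 42.5 FPKM in Y1, Y2 and Y3, with a log2 (foldchange) of −3.51 (SE 0.14, adjusted p = 3.1e-07, limma). CPEB4 was at 10.6 ± 1.0 and 8.08 ± 0.720 FPKM (SD, n = 3) and was not called. Within the CPEB family CPEB2 and CPEB3 were thus called lower, and CPEB1 and CPEB4 were not called as deposited. With Sertoli-centred values CPEB1 and CPEB4 were called lower too (−1.76 and −1.82). FMR1 had the highest value of the list at 2.06 (−0.11 with Sertoli-centred values), and PCBP2, the most abundant, was at 346.7 ± 24.9 and 322.0 ± 14.5 FPKM (SD, n = 3) with overlapping groups.

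**Figure D5:**
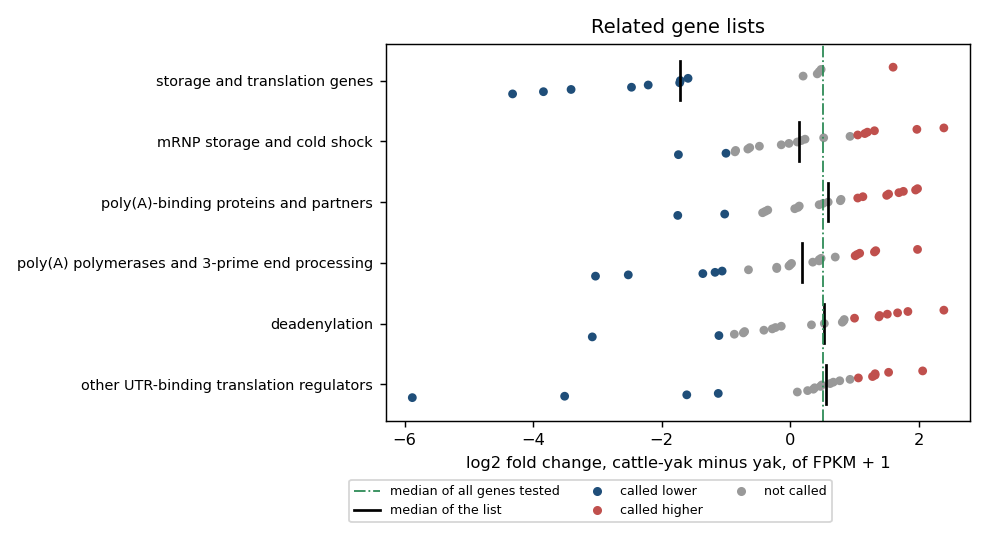
The log2 (foldchange) of cattle-yak minus yak on FPKM + 1 for each tested entry of the storage and translation genes and of 5 lists of related genes, coloured by call as deposited, with a black bar at the median of each list and a green line at the median of all genes tested (0.51). The medians of the related lists run from 0.14 to 0.59 (−2.04 to −1.59 with Sertoli-centred values) and that of the storage and translation genes is −1.71.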

How the data were processed

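Per the methods of the study, the authors trimmed the reads, used HISAT2 to map both groups to the yak genome and calculated FPKM with Cufflinks. No scaling between libraries is described for the FPKM, and the test of the study on read counts (DESeq) was not used here. The deposited FPKM of the 17973 genes with at least 2 values above 0, of 18918, were whole fragments (within 0.03) over gene length and depth. These fragments and lengths were recovered, with 98.49% of lengths within 0.02 of whole bases. How reads with several matches were counted is not given in the sources used here, and 1180 symbols stood on more than 1 entry. The values are not counts, so limma (3.58.1, R 4.3.3) was run two-sided, with a trend in the variance, on log2 (FPKM + 1). Benjamini-Hochberg adjustment was over all 15042 genes tested. The fit was first tried on simulated data with few changed genes and no shift between libraries, which cannot check the choice of scaling. Ratios were compared with exact permutation tests over the 10 ways to divide the animals, and the planned ratio of PAPOLB to PAPOLA was not run. Python 3.11.15, numpy 2.4.6, pandas 2.3.3, scipy 1.17.1 and matplotlib 3.10.9 were used. The genes and lists were chosen with earlier results of these data known. Named are every entry of the chosen symbols, family relatives given by symbol, the extremes and the most abundant gene of each related list, and the most abundant gene of each marker list, except 1 gene that is not reported here. Alternatives were a pseudocount of 0.1, no minimum or 5 FPKM, median-of-ratios, TPM and Sertoli-centred scaling (11 markers), no trend, adjusted p alone, voom on recovered fragments, and leaving out each animal. Chromosome positions and sequences were not used here.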

Additional observations from a re-analysis of the deposited data

How the results depend on the processing

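The calls of YBX2, YBX1, YBX3, PABPC1, CPEB2 and the second PAPOLA entry as lower held under each alternative in which they were tested. A minimum of 5 FPKM removed the second YBX3 entry and left 7 lower calls. Leaving out each animal in turn gave 1 higher and 8 lower calls each time, with medians from −1.76 to −1.66. Adjusted p alone gave 4 entries higher, and 7916 of all genes, and voom gave 2 entries higher (MSI2 and the third PAPOLA entry). The median of all genes was 0.58 with TPM, 0.19 with no minimum, 0.62 with a pseudocount of 0.1 and 0.63 with voom.

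Scaling shifts every gene of a library together by about the same amount. Median-of-ratios scaling gave 2655 genes higher with a median of 0.01, and a median of −2.32 for the storage genes. It gave 3 higher, 6 lower and a median of −0.08 for deadenylation, 2 higher, 7 lower and −0.34 for mRNP storage, 1 higher and −0.05 for other UTR-binding regulators, and 1 higher and −0.41 for polymerases. Poly(A)-binding proteins had 6 higher, 3 lower and a median of 0.17. Log2 (foldchange) values that turned negative were those of CPEB1 (−0.19), CPEB4 (−0.20), LIN28B (−0.30), MSI1 (−0.09), the first PAPOLA entry (−0.41) and PCBP2 (−0.51).

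Sertoli-centred values gave 36 genes higher, 10853 lower and a median of −1.67, and for the storage genes 0 higher, 12 lower and a median of −3.89. Each related list had 0 higher, with 15 lower and −1.65 for deadenylation, 16 and −2.04 for mRNP storage, 15 and −1.63 for other UTR-binding regulators, 19 and −1.99 for polymerases, and 15 and −1.59 for poly(A)-binding proteins. Values that turned negative were those of CPEB1 (−1.76), CPEB4 (−1.82), FMR1 (−0.11), LIN28B (−2.07), MSI1 (−1.70), MSI2 (−0.58), NUDT21 (−1.14), PABPC1L (−1.67), PABPC4 (−0.20), PABPC5 (−0.65), the second PABPN1 entry (−1.05), the first and the third PAPOLA entry (−1.97 and −1.73), PAPOLG (−1.17), PCBP2 (−2.07), TENT2 (−1.48) and TENT5A (−0.20).

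The log2 (foldchange) of LIN28B ran from −0.03 to 0.30 when animals were left out. Left-out animals gave 1 to 2 lower calls for poly(A)-binding proteins (1 without C3), deadenylation (1 without Y2) and mRNP storage (1 without Y3). The cause of these changes was not tested, apart from the shift that scaling makes by construction. Each ratio of related genes kept its sign with a pseudocount of 0.1, with none, with entries summed by symbol and without each animal. No paired analysis was possible because the titles in the labels number the cattle-yak 5 to 7 and the yak 8 to 10, and the names C1 to C3 and Y1 to Y3 follow these numbers in order and pair no animals. Among the 14 entries, depth limits the second YBX1 and YBX3 entries most, with 0 and 2 fragments in cattle-yak, and the log2 (foldchange) of the latter was −5.21 with a pseudocount of 0.1 and −6.55 with voom.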
